A study of Mus musculus with 7 samples.

Results

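Aim2 is the gene that the labels name as knocked out in this study, and it is described here through its annotated transcripts. The members were all transcripts that GENCODE M21 assigns to Aim2, matched by Ensembl transcript identifier. They were 7 of 116546 transcripts listed in each deposited file, and 1 of 35498 genes. The RNA was from marrow, and the mice were females of 5 to 6 months. There were 3 libraries from Aim2-null animals (KO 1 to KO 3) and 4 from wild-type animals (WT 1 to WT 4), named here by their labels. Strain, allele, the altered part of the gene and whether the wild types were littermates are not stated in the labels used here. Whether every library is a separate mouse is not stated either, and the spread that p-values measure is that between libraries, which may be technical. Depth was 20300468 to 21099972 estimated reads per library.

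AIM2 is a cytosolic sensor of double-stranded DNA. Its pyrin domain, at the start of the protein, recruits the adaptor ASC, which is encoded by Pycard, and its HIN domain, towards the end, binds DNA. The assembled inflammasome activates caspase-1, which matures interleukin-1 beta and interleukin-18 and cleaves gasdermin D into a pore. In bone marrow AIM2 is known from macrophages and B cells and from the death of haematopoietic cells after irradiation.

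On GRCm38 the gene (ENSMUSG00000037860.15) spans 173350879 to 173466040 of chromosome 1, plus strand. The coding sequence is 1062 bases long, in 5 coding exons that all lie at the downstream end of the gene. Aim2-204 (173455354 to 173466032) starts at the first coding base and holds all 5. Aim2-202 (173350879 to 173466040) holds the same coding exons after 7 further exons upstream that are non-coding. The other 5 transcripts do not reach the last coding exon. Aim2-205 (173420598 to 173459719) runs from upstream exons into the second coding exon, where its annotation is open-ended. Aim2-203 (173454971 to 173455595) is a short model that ends within the first coding exon. Aim2-207 (173455354 to 173462007) joins the first coding exon to the third, and Aim2-206 (173419196 to 173427781) has no coding exon. Aim2-201 (173455488 to 173456165) takes 35 bases of the first coding exon and then an exon of its own in the intron behind it.

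**Figure D1:**
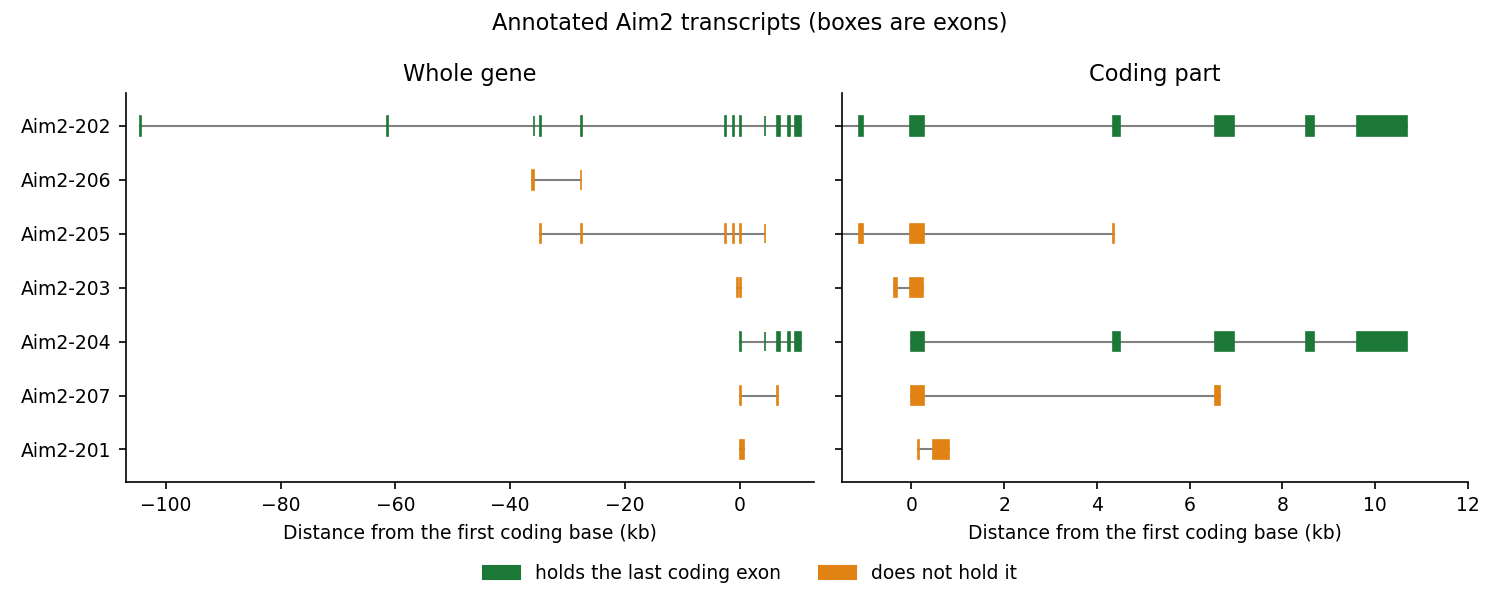
Exons (boxes) of the 7 annotated Aim2 transcripts against distance in kb from the first coding base, for the whole gene (left) and the coding part (right). Aim2-202 and Aim2-204 hold the last coding exon and the other 5 do not.

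Segments that separate these transcripts are printed from GENCODE M21, 5′ to 3′ on the plus strand. The first coding exon (chr1:173455354-173455615) is shared in whole or in part by every transcript but Aim2-206, and capitals mark the 35 bases that Aim2-201 also holds. In the second coding exon (chr1:173459698-173459849) capitals mark the 22 bases with which Aim2-205 ends. The coding part of the last coding exon (chr1:173464971-173465015), in capitals, is held only by Aim2-202 and Aim2-204 among Aim2 transcripts. The remaining segment is the beginning of the exon that only Aim2-201 has (chr1:173455829-173455928).
First coding exon: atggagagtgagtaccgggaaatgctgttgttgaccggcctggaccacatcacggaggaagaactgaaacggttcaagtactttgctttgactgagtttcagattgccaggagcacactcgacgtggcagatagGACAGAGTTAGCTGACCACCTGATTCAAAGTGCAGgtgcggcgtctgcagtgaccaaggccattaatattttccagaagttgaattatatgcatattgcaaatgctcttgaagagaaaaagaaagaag
Second coding exon: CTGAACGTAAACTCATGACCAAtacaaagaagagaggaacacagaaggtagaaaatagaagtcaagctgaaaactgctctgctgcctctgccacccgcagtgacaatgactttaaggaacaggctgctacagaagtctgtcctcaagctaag
Last coding exon: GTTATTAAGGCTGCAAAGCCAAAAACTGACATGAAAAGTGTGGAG
Own exon of Aim2-201: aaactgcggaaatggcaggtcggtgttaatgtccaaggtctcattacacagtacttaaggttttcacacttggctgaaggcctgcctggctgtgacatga

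How far reads can be told apart between these models was measured in stretches of 31 bases. The whole sequences of Aim2-204 and of Aim2-205 are contained in Aim2-202, so 0 of their 2049 and 714 stretches are theirs alone. Reads of either therefore also match Aim2-202, and how they were divided from it rests on the quantification model. Aim2-204 and Aim2-205 have only the first 284 coding bases in common and differ in sequence elsewhere. Aim2-201 has 337 of 342 stretches to itself, Aim2-206 has 281 of 353, Aim2-202 has 228 of 2809, Aim2-203 has 63 of 296 and Aim2-207 has 26 of 333. Of the Aim2-204 stretches, 169 also occur in transcripts of other genes. Those that start in coding sequence number 64 and are shared with Gm7871 alone, which had 0 reads in all 7 libraries. The other 105 lie behind the coding sequence. A gene on the opposite strand, Cadm3, overlaps 16817 bases at the upstream end of Aim2. In CPM, which are reads scaled to library size, Cadm3 was at 4.28 ± 0.77 (SD, n = 3) in KO marrow against 4.40 ± 0.87 (SD, n = 4) in WT.

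As a whole, Aim2 fell in KO marrow, to 157, 47 and 59 reads in KO 1 to KO 3 against 601, 573, 535 and 533 reads in WT 1 to WT 4. Every KO library lay below every WT library, and KO 1 lay well above the other KO libraries. On the log2 scale the gene fell by 2.76 ± 0.38 (SE), and edgeR's quasi-likelihood test gave a Benjamini-Hochberg adjusted p of 0.028. In the same test 0.169% of 14238 genes were called lower in KO, and 5.94% had every KO library below every WT library. Measured as TPM, a level corrected for transcript length, the gene summed to 10.4, 5.73 and 7.61 in KO and to 16.2, 18.2, 19.0 and 16.2 in WT. The KO libraries thus kept 8.39 to 28.0% of the WT mean by reads but 32.9 to 59.5% by TPM. A read on a short transcript counts for more TPM than a read on a long one. On the log2(TPM + pseudocount) scale the difference was -1.17 with a pseudocount of 0.1 and -1.08 with 1, and neither passed (limma, adjusted p = 0.054 in both). This scale understates changes of genes near the pseudocount, whereas Aim2 was at 5.73 TPM or more in every library. An offset for effective length gave -1.28 with an adjusted p of 0.028 in edgeR. The call on reads was also lost in edgeR when any 1 library other than KO 1 was left out, with the gene lower in KO each time. The adjusted p in edgeR was 0.0538 without KO 3 and 0.0913 without KO 2. It was 0.0546 without WT 4, 0.0651 without WT 1, 0.0825 without WT 3 and 0.097 without WT 2. The call held in edgeR without KO 1 (adjusted p = 0.00050), with RLE scaling (0.0296) and without a filter on low counts (0.0124). DESeq2 on all 7 libraries gave -2.76 with an adjusted p of 4.7e-14.

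The lower reads lay in the 2 transcripts that hold the last coding exon. These 2 are also the only ones with the fourth coding exon and with the second beyond its first 22 bases. The split therefore does not place the loss at the last coding exon itself. Summed, Aim2-202 and Aim2-204 had 117, 14.8 and 5.43 estimated reads in KO 1 to KO 3 against 563, 530, 482 and 494 in WT. The groups did not overlap. KO 2 and KO 3 were at 2.87% and 1.05% of the WT mean, and KO 1 was at 22.7%. In CPM, KO marrow averaged 2.15 ± 2.91 (SD, n = 3) against 25.7 ± 3.15 (SD, n = 4) in WT. The log2 fold change was -3.58 ± 0.75 (SE) with an adjusted p of 0.098 by edgeR's quasi-likelihood test, so this sum did not pass, where 0.162% of all genes were called lower. That outcome depended on KO 1 and on the test. Without KO 1 the log2 fold change was -5.76 and the adjusted p in edgeR was 0.00143. With all 7 libraries the adjusted p was 0.014 by DESeq2 and 0.025 by limma on log2(TPM + 1).

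The 5 transcripts that do not hold the last coding exon did not pass a test of difference. Summed, they had 39.7, 32.2 and 53.6 reads in KO 1 to KO 3 and 37.6, 43.5, 53.4 and 39.1 reads in WT 1 to WT 4. The 2 ranges overlapped. In CPM, KO marrow averaged 1.95 ± 0.46 (SD, n = 3) against 2.14 ± 0.30 (SD, n = 4) in WT. On the log2 scale the difference was -0.13 ± 0.22 (SE), with an adjusted p of 0.876 in edgeR's test. Its sign turned with an offset for effective length (0.24), with TPM (0.37 or 0.32) and without KO 2 (0.02).

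**Figure D2:**
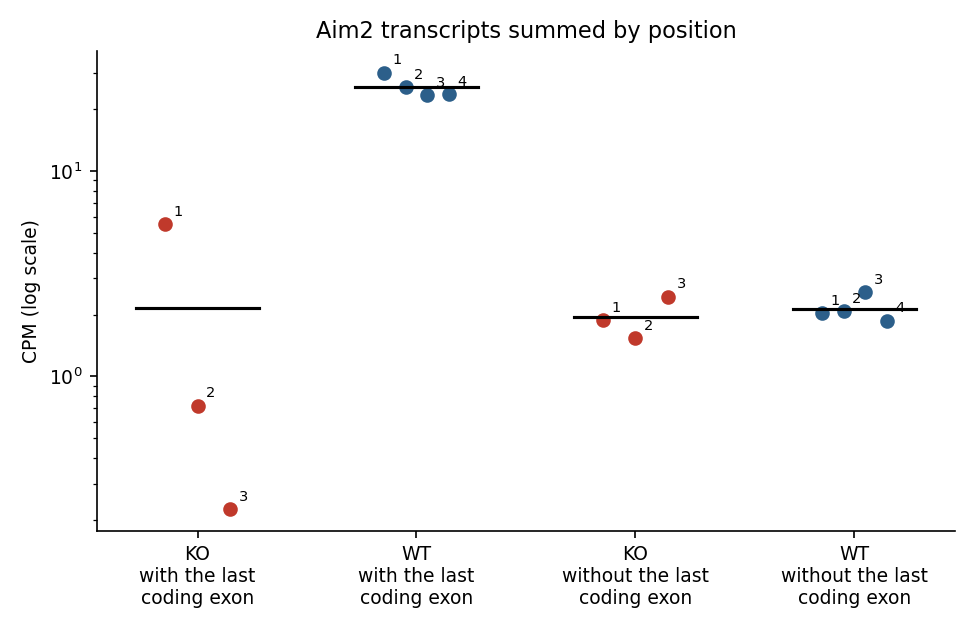
Summed level of Aim2 transcripts with and without the last coding exon, in CPM on a log axis, with 1 point per library (numbered) and a line at each group mean. With the last coding exon the KO libraries sit at 0.23 to 5.49 CPM and the WT libraries at 23.4 to 30.2 CPM, whereas without it both groups sit between 1.54 and 2.57 CPM.

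The 2 classes were also compared through their share. This share must rise when reads with the last coding exon fall and the other reads do not fall with them. Its permutation tests therefore restate that fall and are not a separate result. In every library most reads without the last coding exon were assigned to Aim2-205, whose sequence is contained in Aim2-202. The share thus also rests on how the quantification model divided these reads. Transcripts without the last coding exon took 25.3, 68.5 and 90.8% of Aim2 reads in KO 1 to KO 3, against 6.26, 7.59, 9.97 and 7.34% in WT 1 to WT 4. Each KO library was above each WT library, and KO 1 was nearest to WT. The means were 61.5 ± 33.3% (SD, n = 3) and 7.79 ± 1.56% (SD, n = 4), a difference of 53.7 percentage points (two-sided exact permutation test, p = 0.0286, the smallest that 35 assignments can give). Measured by TPM the same share was 71.1, 95.4 and 98.7% in KO and 25.2 to 35.2% in WT, also without overlap (exact permutation p = 0.0286).

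Among single transcripts, Aim2-204 is the model that carries most of the protein-coding signal in wild-type marrow. Of all reads it had 524, 407, 432 and 404 estimated reads in WT 1 to WT 4, and 95.3, 0 and 0 reads in KO 1 to KO 3. KO 2 and KO 3 thus allow at most 3 reads each, at least 147-fold under the WT mean by counting error alone and under the model's split. In TPM, Aim2-204 stood at 10.8 ± 0.75 (SD, n = 4) in WT and at 2.58, 0 and 0 in KO. It took 71.0 to 87.2% of Aim2 reads in WT and 60.7% in KO 1.

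Aim2-202, the long model with the same coding exons, had 22.0, 14.8 and 5.43 reads in KO 1 to KO 3 and 39.0, 123, 49.8 and 89.8 reads in WT 1 to WT 4. The groups did not overlap, but WT libraries differed widely. Its coefficient of variation over the WT libraries was 51.0%, against 12.8% for Aim2-204 and 7.14% for the sum of both, so the sum is the steadier measure. In KO 2 and KO 3, where Aim2-204 was at 0, the reads of Aim2-202, Aim2-203 and Aim2-205 added up to 40.0 and 51.0, which are whole numbers to within 0.001, although each single value was fractional. At least some of these reads were divided between models, and the estimated counts do not show whether any of them covered the last coding exon.

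Aim2-205, which combines the upstream exons with the beginning of the coding sequence, was the most abundant Aim2 transcript by reads in KO 2 and KO 3. It had 26.9, 23.0 and 44.0 reads in KO 1 to KO 3 and 34.4, 36.8, 46.2 and 34.0 reads in WT 1 to WT 4. The groups overlapped, with KO 3 above 3 of the WT libraries. In TPM it stood at 2.96 ± 1.03 (SD, n = 3) in KO and 3.44 ± 0.67 (SD, n = 4) in WT. Its share of Aim2 reads was 17.1, 48.9 and 74.5% in KO against 5.72 to 8.64% in WT.

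Aim2-201, the model with an exon in the intron behind the first coding exon, had few reads and ran the other way. It had 9, 7 and 7 reads in KO 1 to KO 3 and 2, 0, 4 and 1 reads in WT 1 to WT 4. Each KO library was above each WT library, an order that 4.91% of all tested transcripts also showed. Its log2 fold change was 1.98 ± 0.83 (SE) with an adjusted p of 0.763 in edgeR's quasi-likelihood test over 34511 transcripts, so it did not pass. In TPM it stood at 2.62 ± 0.47 (SD, n = 3) in KO and 0.58 ± 0.56 (SD, n = 4) in WT. Because its effective length was only 120 to 139 bases, these few reads made up 30.6 to 41.0% of Aim2 TPM in KO and 0 to 6.92% in WT.

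The other 3 models were close to the detection limit. Reads of Aim2-203 numbered 1.864, 2.19 and 1.6 in KO 1 to KO 3, and 1.27 in WT 1 with none in the other WT libraries. Aim2-206 ranged from 0 to 2 reads over KO and from 0 to 4.17 over WT. Aim2-207 had 0 reads in all KO libraries, and 2.62 reads in WT 2 and 1.15 in WT 3. At 3 reads a level of 0.142 to 0.148 CPM would be reached, so these values are at or near what a count of 0 allows.

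**Figure D3:**
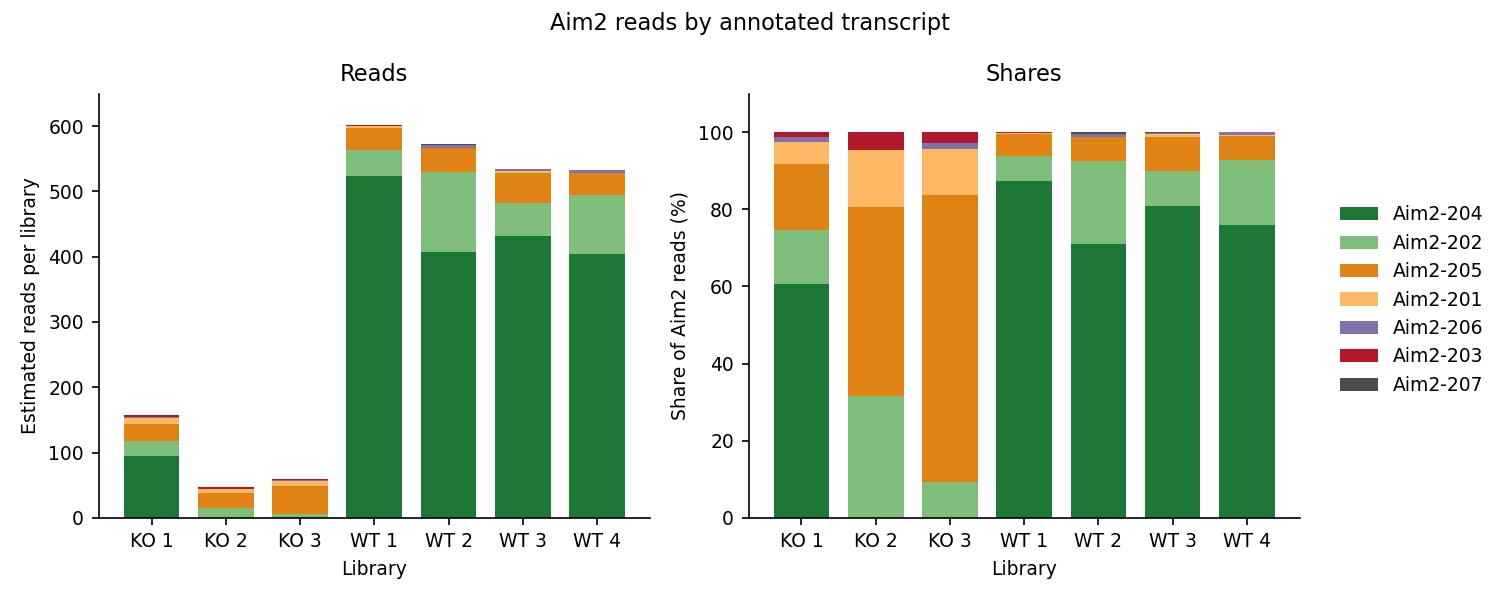
Estimated reads of each Aim2 transcript, stacked, per library (left) and as a share of all Aim2 reads of that library (right, in %). Aim2-204 makes up most of the bar in the 4 WT libraries and in KO 1 and is missing in KO 2 and KO 3, where Aim2-205 takes 48.9% and 74.5%.

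Tested singly, 0 of the 7 Aim2 transcripts passed edgeR's test after adjustment over all transcripts, and 3 had an unadjusted p under 0.05, as did 6.5% of all transcripts. Over all 34511 transcripts 0.0348% were called, and 4.25% had every KO library below every WT library, as Aim2-202 and Aim2-204 did. Only 3 of the 7 passed the filter on low counts by themselves, and the others were kept in the fit because they are members. The log2 fold changes were -3.89 ± 1.40 (SE; adjusted p = 0.689) for Aim2-204, -2.48 ± 0.61 (SE; adjusted p = 0.425) for Aim2-202 and -0.34 ± 0.30 (SE; adjusted p = 0.910) for Aim2-205. Without KO 1, Aim2-204 passed with an adjusted p of 0.0167.

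**Figure D4:**
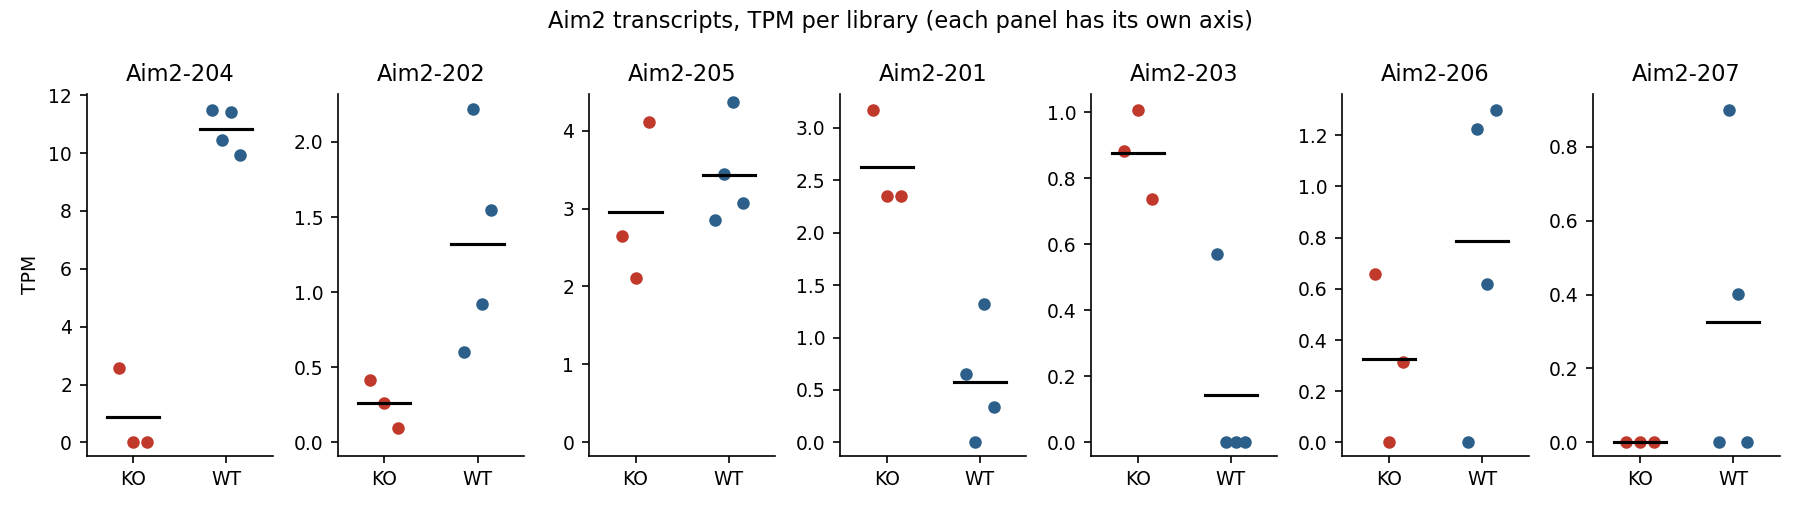
TPM of each Aim2 transcript, with 1 point per library, KO (red, 3 libraries) and WT (blue, 4 libraries), and a line at each group mean. Each panel has its own axis, and Aim2-204 and Aim2-202 are lower in every KO library while Aim2-205 overlaps between the groups.

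KO 1 differed from the other KO libraries in the transcripts with the last coding exon and much less in the sum of the other Aim2 transcripts. Its Aim2-204 level was 21.6% of the WT mean by reads, while KO 2 and KO 3 were at 0. For transcripts without the last coding exon KO 1 was at 91.6% of the WT mean, between KO 2 at 74.1% and KO 3 at 123%. The spread of Aim2 among the KO libraries, 1.51 on the log2 scale from lowest to highest, was reached by 2.98% of the 13210 genes averaging 1 CPM or more, whose median spread was 0.26. Over WT libraries the Aim2 spread was 0.33.

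Values of 2 other genes of the IFI200 family were set beside those of Aim2. Ifi213, a gene of the same family that lies downstream on chromosome 1 (173566283 to 173599274), had 9, 5 and 4 reads in KO 1 to KO 3 against 103, 108, 160 and 146 in WT 1 to WT 4, which in CPM is 6.63, 3.77 and 2.84% of the WT mean. Ifi202b (173962568 to 173982744) had 505, 443 and 662 reads in KO and 2, 0, 0 and 0 in WT.

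A search over all genes and transcripts for the pattern of Aim2-204 was made with at most 3 reads in KO 2 and in KO 3 and at least 50 reads in every WT library. It returned 0 genes and 17 transcripts, 1 of them Aim2-204. In KO 1, 10 of the 17 were above 10% of their WT mean and 7 were at or under 3 reads. The 5 with the highest WT mean were transcripts of Uhmk1, Arrb1, Aim2, Ehmt2 and Axin1. Their KO 1 reads were 0, 355, 95.3, 0 and 0 against WT means of 731, 569, 442, 329 and 305 reads. In none of these genes, Aim2 included, did the gene sum meet the same limits.

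The RefSeq start of Aim2 (173420604) lies 6 bases from the annotated start of Aim2-205, the transcript whose level overlapped between the groups. The stretch before it, up to the nearest annotated exon, is printed from RefSeq on GRCm38.p6 (chr1:173420354-173420570, plus strand, 5′ to 3′).
Upstream of Aim2-205: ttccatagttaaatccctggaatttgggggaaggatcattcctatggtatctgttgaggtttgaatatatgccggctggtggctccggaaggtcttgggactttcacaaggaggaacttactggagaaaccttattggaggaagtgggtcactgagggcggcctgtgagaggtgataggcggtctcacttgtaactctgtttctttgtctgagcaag
The window of 300 bases around this start was searched on both strands for the core of the interferon-stimulated response element, GAAANNGAA, and for the gamma-activated sequence, TTCNNNGAA. It held 0 matches to either. Of 32851 windows of the same length 8.56% and 8.3% held them. Aim2-204 starts at its first coding base in the annotation, and no window for that start was used here.

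Genes whose level ran most like that of Aim2 over the 7 libraries were Zfp653, Psen2, Pqlc2, Apbb3 and Kctd3. The measure was Pearson's r of log2(CPM + 0.5) over 7 libraries among 13209 genes, and it was 0.986 to 0.993 for these 5. All 5 were lower in every KO library than in every WT library, so the libraries form separate groups behind these values. Psen2, a catalytic subunit of gamma-secretase, was at 32.3, 29.2 and 29.4 CPM in KO 1 to KO 3. In WT it was at 41.3 to 42.7 CPM. Kctd3 was at 21.8, 19.2 and 19.3 CPM in KO and at 26.7 to 28.5 CPM in WT. Both differ by far less than Aim2, with log2 fold changes of -0.47 and -0.46. Psen2 (from 180227004) and Kctd3 (from 188971095) lie on chromosome 1, as Aim2 does. Zfp653, Pqlc2 and Apbb3 lie on chromosomes 9, 4 and 18. Whether position has a part in the likeness was not tested. For Zfp653, Pqlc2 and Apbb3 the log2 fold changes lay between -0.35 and -0.29.

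Of the other genes of the AIM2 inflammasome, most did not pass the test. Of 24 listed genes, all with enough reads, 1 was higher in KO, 0 were lower and 23 did not pass, beside 0.478% of all genes called higher. The list median of the log2 fold change was 0.16, against -0.01 over all tested genes, and 14 members had an unadjusted p under 0.05 in edgeR, as did 11.5% of all genes. DESeq2 called 6, all higher, where it called 2.84% of all genes. The list was compiled with earlier results of these data known.

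Among sensors and regulators that work with AIM2, Zbp1, a sensor of Z-form nucleic acid, was the member that rose. It was at 19.3, 21.3 and 26.4 CPM in KO 1 to KO 3 and at 5.82 to 8.997 CPM in WT, without overlap (difference of 1.59 ± 0.17 on the log2 scale, SE, with an adjusted p of 0.010 in edgeR's test). Gm12250, which encodes the immunity-related GTPase Irgb10, was at 6.43 to 6.97 CPM in KO and 2.76 to 4.26 CPM in WT (adjusted p = 0.067, edgeR's quasi-likelihood test). Irf1, Gbp2, Gbp5 and Cgas had log2 fold changes of 0.25, 0.61, 0.37 and 0.45, and Mefv, Tmem173 and Trim11 of 0.17, 0.14 and -0.05. None of these 8 passed edgeR's test, while DESeq2 called Gm12250, Gbp2 and Cgas (adjusted p = 0.00086, 0.0079 and 0.039), and 5 of them with Zbp1 make up the 6 of 9 in this role whose groups did not overlap, all of them higher in KO, beside 6.95% of all genes.

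Pycard, the adaptor ASC, was at 29.0, 36.2 and 38.3 CPM in KO 1 to KO 3 and at 28.7 to 29.7 CPM in WT. KO 1 lay within the WT range and the other KO libraries above it (adjusted p = 0.410, edgeR's quasi-likelihood test). Casp1, the caspase that the inflammasome activates, was at 18.6 to 20.8 CPM in KO and at 13.03, 19.3, 19.3 and 19.2 CPM in WT, and the groups overlapped (log2 fold change 0.13 ± 0.14, SE). The other caspases had log2 fold changes of 0.15 for Casp8 and 0.64 for Casp4, and 0 of 3 caspases passed edgeR's test, while DESeq2 called Casp4 (adjusted p = 0.0024). The partners in panoptosis, Fadd, Ripk1 and Ripk3, had log2 fold changes of 0.02, 0.04 and 0.23.

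Gsdmd, the pore protein cut by caspase-1, was at 48.0, 50.2 and 51.5 CPM in KO and at 44.4 to 46.4 CPM in WT. The groups did not overlap, yet the difference of 0.15 ± 0.06 (SE) on the log2 scale did not pass in edgeR's test, at an adjusted p of 0.372. Gsdme and Ninj1 had log2 fold changes of 0.31 and -0.34. Il1b, the cytokine precursor, was at 28.7, 24.6 and 20.95 CPM in KO 1 to KO 3 and at 11.7, 14.9, 13.2 and 18.3 CPM in WT 1 to WT 4. Each KO library was above each WT library (difference of 0.77 ± 0.17 on the log2 scale, SE, with an adjusted p of 0.107 in edgeR's test and 0.0020 in DESeq2). Il18 was at 8.65 to 8.78 CPM in KO and 7.13 to 9.91 CPM in WT, and the groups overlapped. Il1a, Il18bp and Il1rn had log2 fold changes of 0.03, -0.13 and 0.05.

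**Figure D5:**
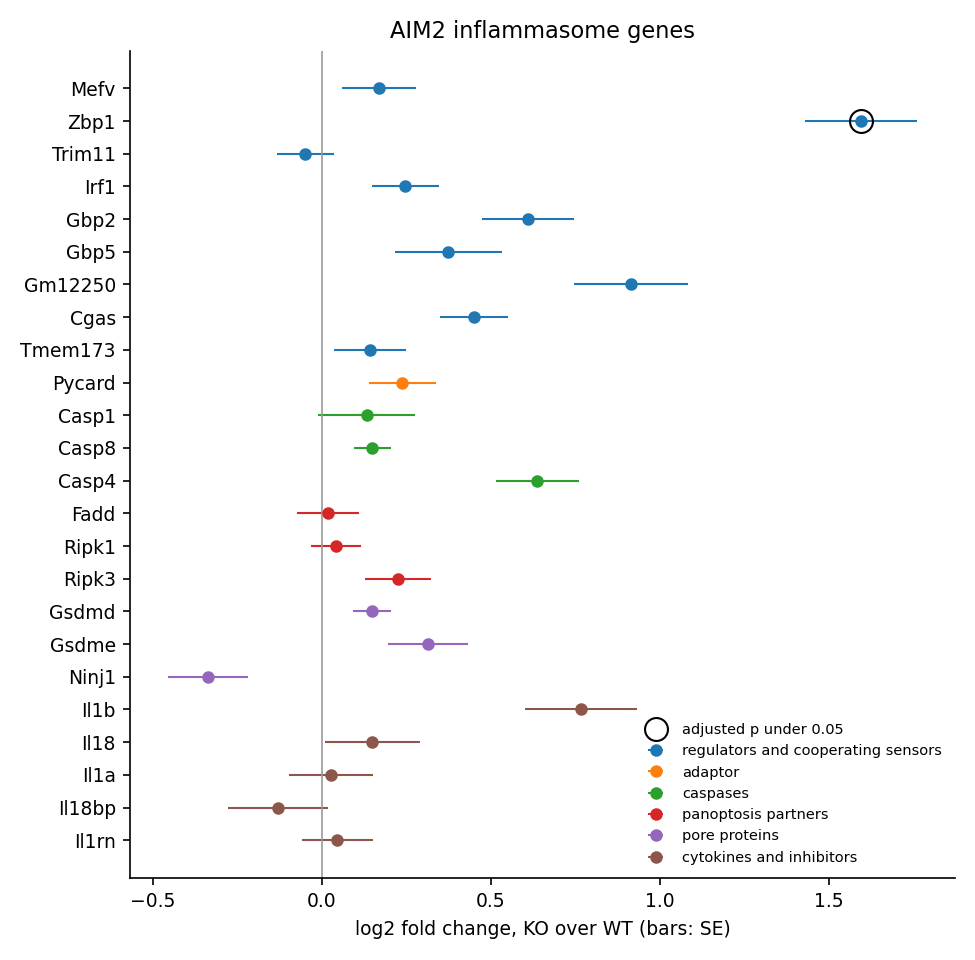
Log2 fold change, KO over WT, of 24 AIM2 inflammasome genes by role, with SE bars (3 KO and 4 WT libraries). Zbp1, ringed, is the member past an adjusted p of 0.05, and 21 of the 24 lie above 0.

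Summed levels of cell type markers did not overlap between the groups for 4 of 9 lists, the B lineage, monocytes and macrophages, T cells and NK cells. Among single genes, 5.94% had every KO library below every WT library and 6.95% had every KO library above. In edgeR's test 0.169% of all genes were called lower in KO and 0.478% higher. In bulk marrow fewer cells of a type and less RNA per cell cannot be told apart. Markers of the B lineage, cells known to express Aim2, summed to 143 to 236 CPM in KO and 313 to 493 CPM in WT. All 7 of these markers had a log2 fold change under 0 (median -0.95, Cd79a -0.98), and 0 of 7 passed. An unadjusted p under 0.05 in edgeR was reached by 6 of the 7, beside 11.5% of all genes. For monocytes and macrophages, T cells and NK cells it was reached by 2 of 6, 4 of 6 and 2 of 5 markers. Monocyte and macrophage markers summed to 907 to 1058 CPM in KO and 543 to 815 CPM in WT, with 0 of 6 past the test (Csf1r 0.35). T cell markers were at 52.7 to 68.9 CPM in KO and 72.9 to 93.3 CPM in WT (Cd3e -0.21, 0 of 6 past the test), and NK cell markers at 63.0 to 69.8 and 48.2 to 62.5 CPM (Klrb1c 0.28, 0 of 5). Nkg7 made up most of the NK cell sum, at 49.1 to 59.0 CPM in KO and 38.4 to 49.6 CPM in WT. Gzma was at 0.95 to 1.87 CPM in KO and 1.98 to 2.52 CPM in WT. Taken singly, 0 of the 5 NK cell markers were higher in KO without overlap and 1, Gzma, was lower. Sums overlapped for neutrophil (Elane 0.15), erythroid, dendritic cell (Siglech 0.06), adipocyte (Adipoq -0.16) and skeletal muscle markers (Acta1 0.22). Of these 5 lists Cd209a was the only member past the test. Skeletal muscle markers summed to 52.2, 624 and 5141 CPM in KO 1 to KO 3, the reverse order of Aim2 transcripts with the last coding exon, and to 876 to 1812 CPM in WT. The KO libraries' B lineage sums were 236, 143 and 223 CPM, highest in KO 1 and lowest in KO 2. Aim2 transcripts with the last coding exon were also highest in KO 1 but lowest in KO 3. The part of cell composition and of muscle RNA in the Aim2 values was not tested.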

How the data were processed

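Strand-specific mRNA libraries of bone marrow were read on a DNBSEQ instrument, per the labels' protocols. The authors checked reads with FastQC 0.11.9 and quantified transcripts with Salmon 1.7.0 on GRCm38.p6, per the submitters' processing notes. DESeq2 is listed there too. For the annotation release and Salmon's options the sources used here say nothing. The authors deposited estimated counts per transcript without normalization, and TPM values scaled for effective length. The deposited estimated counts are fractional where reads fit several transcripts.

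Transcripts were joined to genes with GENCODE M21, and 569 without a gene were left out. Counts were summed per gene, also with Aim2 split by whether a transcript holds the last coding exon, and rounded. Genotype was tested with edgeR 4.0.16 (quasi-likelihood, TMM factors 0.918 to 1.06, filterByExpr, no covariates) and Benjamini-Hochberg adjustment, at 0.05. CPM use TMM-adjusted library sizes. Floors of 3 reads cover counting error only. Shares were tested by exact permutation of libraries on the absolute difference of means. Alternatives used DESeq2 1.42.0, limma 3.58.1, other scaling, filters and lengths, a block, and single libraries left out. The fits were run on simulated data with the same dispersion for every feature and in both groups. The libraries here need not share that setting, so the simulation does not bear on the calls given above. Irgb10 was matched to Gm12250 through RefSeq synonyms. Members, lists and tests were chosen with earlier results of these data known. Named genes were Aim2 and its transcripts, core inflammasome genes, Ifi213, Ifi202b, the 5 genes most like Aim2, the first gene of each marker list and the 5 highest transcripts absent in KO 2 and KO 3. Cadm3, Gm7871, Cd209a and the other listed inflammasome genes were chosen as names with their values known. No protein sequence was used here, and 3 listed genes are left out of the lists and not reported here.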

Additional observations from a re-analysis of the deposited data

Results flagged for a closer look

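Among 32 quantities compared over the 4 WT libraries, 6 had 1 library far from the other 3. Chance gives about 1 in 20 for independent, normally distributed quantities. Several of the 32 share reads, such as Aim2 transcripts and their sums, so the count cannot be held against that rate. WT 1 was low in Casp1 (13 CPM against 19.2 to 19.3), in the sum of monocyte and macrophage markers (543 against 795 to 815 CPM) and in the sum of neutrophil markers (8056 against 10108 to 10466 CPM). WT 4 was high in Il18 (9.91 CPM against 7.13 to 7.27). WT 1 also held the only WT reads of Aim2-203 (1.27 estimated reads) and of Ifi202b (0.107 CPM), where 3 zeros beside a few reads make a gap of this kind certain. For all Aim2 reads, the sums with and without the last coding exon and the share without it, no WT library stood apart in this way. The KO group, with 3 libraries, was too small for this comparison.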

How the results depend on the processing

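The Aim2 gene fell in all 14 alternatives, with a log2 fold change of -3.49 to -1.08. The call held in 5 of them, DESeq2 among them (-2.76, adjusted p = 4.7e-14), and was lost in 9. With 1 library left out the log2 fold change was -3.49 to -2.47. The call was then lost without any library other than KO 1 (adjusted p = 0.0538 to 0.097, edgeR). It was also lost with log2(TPM + 0.1) (-1.17) and log2(TPM + 1) (-1.08), where fewer genes were called. With the sample number as a replicate block it was -2.97 (adjusted p = 0.0605). Libraries of the same number did not deviate together (correlations of 0.09, -0.02 and -0.25), and the block fit holds 6 libraries and calls 21 genes. The sum with the last coding exon passed with DESeq2 (-3.58), with log2(TPM + 1) (-2.89) and without KO 1, and it lay between -5.76 and -3.04 with 1 library left out. The sum without the last coding exon reversed in sign with log2(TPM + 0.1) (0.37), log2(TPM + 1) (0.32), the length offset (0.24) and without KO 2 (0.015), and lay between -0.33 and 0.02 with 1 library left out, without passing. With TPM the median over all genes moved on the log2 scale from -0.01 to 0.13 or 0.10. The difference in share was 39.1 to 71.8 percentage points with 1 library left out, where the exact test cannot go below p = 0.0667 or 0.10. For transcripts without any coding exon it was 0.53 percentage points (exact permutation p = 0.371). Over all genes 92 were called, against 405 with DESeq2, 49 and 50 with TPM, 55 with the length offset and 17 to 65 with 1 library left out (42 without KO 1, 22 without KO 2, 17 without WT 2, 24 without WT 3, 51 without WT 4). The inflammasome count was 6 with DESeq2 rather than 1. Of single Aim2 transcripts, tested under 11 alternatives, 0 passed except 1 without KO 1, so the range with 1 library left out was 0 to 1. Causes were not tested. The depth limits the transcripts with few reads, and the split of Aim2-204 and of Aim2-205 from Aim2-202 cannot be checked from the estimated counts.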
